A study of Mus musculus with 2 samples.

Results

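Among liver leukocytes of vehicle- and antibiotic-treated mice, a small group of NKT-like cells carried transcripts of the adhesion molecule *Icam1* and the costimulatory receptor *Tnfrsf9*. These activated *Icam1* *Tnfrsf9* NKT-like cells were the barcodes with at least 1500 unique molecular identifiers (UMIs, 1 per captured transcript), under 10% mitochondrial UMIs, at least 1 UMI of *Trac* and of *Cxcr6*, at least 2 UMIs of *Icam1* and *Tnfrsf9* together, and none of *Trav11*, *Cd79a* or *Ncr1*. The rule gave 315 of 16052 cells, 166 of 9002 with vehicle and 149 of 7050 with antibiotics. All other cells with *Trac* and *Cxcr6* formed the reference, 3421 vehicle and 4067 antibiotic cells. CD45+ leukocytes, which the labels call inflammatory cells, were sorted by FACS from the livers of 6-week-old female mice. The vehicle group received no antibiotics, and the antibiotic group drank water with ampicillin and metronidazole at 1 mg/mL each and vancomycin and neomycin at 0.5 mg/mL each for 1 week. Each group is 1 library. The study used C57BL/6 mice among other lines, and no source used here gives the line or the number of mice behind these libraries. The libraries held 41474311 and 29811401 UMIs, members a median of 4765 and 4058 UMIs per cell and reference cells 4224 and 3630. With 1 library per group there was no replicate check and no test. All intervals below are 95% intervals that cover counting error only.

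ICAM-1 is the ligand of the integrin LFA-1 and holds lymphocytes to one another and to the cells they scan. *Tnfrsf9* encodes 4-1BB, a costimulatory member of the TNF receptor superfamily that activated T and NK cells display. Both genes are known targets of NF-κB, a family of transcription factors held in the cytoplasm by IκB proteins. IκBα, the product of *Nfkbia*, is itself induced by NF-κB and closes that circuit as a feedback inhibitor. NKT cells are abundant in the mouse liver, use an invariant T cell receptor that reads lipids on CD1d, carry NK receptors such as NK1.1 (*Klrb1c*), depend on the transcription factor PLZF (*Zbtb16*), and release cytokines within hours of activation.

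The windows before the transcription start of the genes that chose or led the members are printed here because several of these genes are known NF-κB targets, and they show where κB-like letters lie. Each window is the 250 bases upstream of a RefSeq start on GRCm38.p6, 5′ to 3′ on the strand of the gene. Capitals mark every place with the letters GGANNTTCC or GGGNNTTCC on either strand, and overlapping places were counted separately. *Icam1* (ENSMUSG00000037405) lies at chr9:21015985-21028817 on the plus strand in GENCODE vM21, and its window chr9:21015690-21015939 held 1 place, 153 bases before the start. *Nfkbia*, at chr12:55489410-55492647 on the minus strand, held 2 places in chr12:55492648-55492897, at 178 and 29 bases. *Cxcl10*, at chr5:92346638-92348889 on the minus strand, held 2 places in chr5:92348890-92349139, at 158 and 103 bases. No place was found in the windows of *Ifng* (gene at chr10:118441046-118445892, plus strand; window chr10:118440796-118441045) or of the first *Tnfrsf9* start (gene at chr4:150914562-150946102, plus strand; window chr4:150919905-150920154). The window of a second *Tnfrsf9* start, which overlaps an annotated exon and is not printed, held 1 place 42 bases upstream. Of all 32851 RefSeq promoter windows of this length, 8.38% held at least 1 such place. The genes searched were 18 picked with their values known, and 9 of them held a place in the window of at least 1 start. The windows of *Ifng*, *Marcksl1*, *Tagap*, *Gadd45b*, *Traf1*, *Birc3*, *Xcl1*, *Bcl2* and *Klf2* held none. A match in letters is a description and not a bound site.
Icam1: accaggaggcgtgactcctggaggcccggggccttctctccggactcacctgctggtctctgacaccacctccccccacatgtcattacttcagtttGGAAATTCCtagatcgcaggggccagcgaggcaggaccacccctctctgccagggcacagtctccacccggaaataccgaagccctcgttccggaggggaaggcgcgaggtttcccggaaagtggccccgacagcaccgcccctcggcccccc
Nfkbia: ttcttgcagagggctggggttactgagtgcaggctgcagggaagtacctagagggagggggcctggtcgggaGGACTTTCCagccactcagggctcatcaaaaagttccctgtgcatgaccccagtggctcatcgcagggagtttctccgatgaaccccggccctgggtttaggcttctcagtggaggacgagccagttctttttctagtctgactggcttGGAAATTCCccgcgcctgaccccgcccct
Cxcl10: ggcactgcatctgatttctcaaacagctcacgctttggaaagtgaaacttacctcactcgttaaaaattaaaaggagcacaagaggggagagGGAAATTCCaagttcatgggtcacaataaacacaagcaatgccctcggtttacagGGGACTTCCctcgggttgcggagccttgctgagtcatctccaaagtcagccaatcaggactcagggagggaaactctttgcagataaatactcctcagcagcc
Ifng: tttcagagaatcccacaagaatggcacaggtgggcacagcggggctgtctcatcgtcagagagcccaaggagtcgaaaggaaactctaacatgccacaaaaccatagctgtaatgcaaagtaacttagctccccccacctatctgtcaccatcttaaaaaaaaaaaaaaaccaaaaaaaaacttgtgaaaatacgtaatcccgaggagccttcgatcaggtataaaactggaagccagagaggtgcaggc
Tnfrsf9: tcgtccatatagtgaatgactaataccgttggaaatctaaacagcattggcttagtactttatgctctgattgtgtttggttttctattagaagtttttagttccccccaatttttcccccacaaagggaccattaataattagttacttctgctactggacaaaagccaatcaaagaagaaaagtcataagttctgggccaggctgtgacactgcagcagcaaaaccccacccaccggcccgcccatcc

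The members carried markers by which liver NKT cells are known, most of them at shares near those of the reference. After thinning, in which 1500 UMIs of each cell were drawn at random so that all cells had equal depth, *Klrb1c* was detected in 38.6% of vehicle members (interval 31.1 to 46.4) and in 35.0% of the vehicle reference. In the antibiotic library the shares were 58.4% (50.0 to 66.4) and 56.3%. Members and reference therefore overlapped in NK1.1 transcript within each library, while B cells, which should lack it, gave 2.42% and 4.18%. *Zbtb16* was detected in 7.83% and 12.1% of vehicle and antibiotic members, against 7.69% and 6.71% of reference cells and 0.0713% and 0.322% of B cells. Before thinning, *Zbtb16* was found in 21.1% and 24.8% of members. *Tbx21*, the T-bet gene of interferon-γ-producing lymphocytes, was detected in 14.5% and 14.1% of members and in 14.2% and 10.7% of reference cells. *Cd3e*, a signaling chain of the T cell receptor, reached 49.4% and 47.7% of members and 53.8% and 48.4% of reference cells. *Il2rb*, the IL-2/IL-15 receptor β-chain, reached 43.4% and 43.6% of members, below the 49.6% and 51.6% of reference cells. *Thy1* reached 66.3% and 59.7%, against 67.3% and 62.1%. Of the 23 genes of the NKT lineage list, 16 passed the filter on low values (a mean of at least 30 CPM, counts scaled to an equal total, and at least 10 expected UMIs) with vehicle and 13 with antibiotics, none of them differed 2-fold from the reference, and the median log2 ratios were −0.03 and 0.00. The name NKT-like rests on these genes, and the B cells set beside them do not separate NKT cells from other T cells. The rule itself removed every cell with a *Trav11* UMI, the invariant α-chain segment of NKT cells, which 3′ reads record in few cells.

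Markers of other T cells were read in the same way, and at 1500 UMIs per cell a low share does not show that the other cells lack a gene. After thinning, *Cd4* was detected in 9.04% and 6.04% of members and in 7.48% and 5.21% of the reference. Before thinning it was found in 22.3% and 15.4% of members and in 20.3% and 13.5% of the reference. *Cd8a* was detected after thinning in 3.01% and 1.34% of members against 4.62% and 1.35% of reference cells. *Foxp3*, which defines regulatory T cells, was found after thinning in 0 of 166 vehicle members and 0 of 149 antibiotic members, which allows shares of cells with a UMI of up to 2.20% and 2.45%, and before thinning in 2 vehicle members and no antibiotic member. *Trdc*, the constant segment of the γδ receptor, was detected after thinning in 0.602% and 3.36% of members, in 2.08% and 1.5% of the reference and in 0.819% and 0.724% of B cells. The regulatory T cell list summed to 685 CPM in vehicle members and 704 CPM in antibiotic members, against 500.2 and 507 CPM in reference cells. Of the neutrophil, endothelial and hepatocyte lists, no gene passed the filter in the vehicle library and only *Apoc1* did in the antibiotic library. Their sums in members were 31.6, 32.7 and 27.4 CPM with vehicle and 4.22, 28.1 and 111 CPM with antibiotics. Scrublet called 0 members doublets, against 255 vehicle and 108 antibiotic reference cells. The rule removed cells with *Trav11*, *Cd79a* or *Ncr1* from the members only. Among reference cells without these genes it called 29 of 2242 with vehicle and 15 of 3058 with antibiotics. With so few members, 0 calls do not show that they hold no doublets. Both libraries shared 93 passing barcodes, of which 3 belonged to members.

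B-cell transcripts were fewer in members than in the reference, which follows from the rule, since it removed cells with *Cd79a* from the members only. Of the B-cell list, 7 of 11 genes passed the filter with vehicle and 6 with antibiotics, all lower in members, with median log2 ratios of −1.34 and −1.11. Against a reference freed of *Trav11*, *Cd79a* and *Ncr1* by the same rule, these medians were −0.12 and 0.31. The genes concerned included *Cd79b*, *Ly6d*, *Fcmr*, *H2-DMb2*, *H2-Aa*, *H2-Eb1* and *Cd74*. *Cd74*, the invariant chain of MHC class II, read 683 CPM in vehicle members and 1341 in the reference, a ratio of 0.509, and its ratio to the freed reference was 1.44. Because 1 member held 393 of the 648 *Cd74* UMIs, that last ratio was 0.574 (0.504 to 0.652) without this cell. With antibiotics the *Cd74* ratio to the freed reference was 1.49 (1.26 to 1.75), and 1.25 (1.04 to 1.49) without the member that held most of its UMIs. *Gzma* also depended on the reference used. Granzyme A read 49.5 CPM in vehicle members against 349 in the reference (ratio 0.142), and 0.558 of the freed reference. With antibiotics these *Gzma* ratios were 0.390 and 0.899.

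The cutoff ran through a continuous range of counts. Before the exclusions, 265 vehicle and 209 antibiotic cells had 2 or more UMIs of *Icam1* and *Tnfrsf9*. The exclusions removed 99 and 60 of them, for *Cd79a* in 66 and 28 cells, for *Trav11* in 23 and 31 and for *Ncr1* in 20 and 5, with some cells counted under more than 1 gene. Of the members, 89 vehicle and 87 antibiotic cells lay at exactly 2 UMIs, 27 and 34 at 3, and 50 and 28 at 4 or more, with a highest cell of 10 in each library. Just outside the cutoff lay 428 and 423 cells with 1 UMI, and 1814 and 2635 cells had none.

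Across these classes, *Nfkbia* and *Ifng* were higher where more *Icam1* and *Tnfrsf9* UMIs had been counted. With cells thinned to equal depth, *Nfkbia* read 142 CPM in vehicle cells with 0 UMIs, 199 with 1, 464 with 2, 1037 with 3 and 1120 with 4 or more. With antibiotics it read 145, 263, 1004, 725 and 1548 CPM, so that the class of 3 lay below the class of 2. *Ifng*, the main effector cytokine of NKT cells, read 68.4, 107, 120, 222 and 440.0 CPM with vehicle and 29.1, 42.6, 92.0, 196 and 310 CPM with antibiotics. The summed NF-κB list read 1090 CPM at 0 UMIs and 3840 at 4 or more in the vehicle library, and 1014 and 4524 in the antibiotic library. *Tagap*, a GTPase-activating protein of activated T cells, went from 18.7 to 200 CPM with vehicle and from 18.0 to 357 with antibiotics. *Bcl2*, which protects resting lymphocytes from apoptosis, ran the other way. It read 432 CPM at 0 UMIs and 200 at 4 or more with vehicle, and 627 and 238 with antibiotics. The summed quiescence and recirculation list, to which *Bcl2* does not belong, showed no such course, with 2570 CPM at 0 UMIs and 2640 at 4 or more with vehicle and 2858 and 3476 with antibiotics. The NKT receptor gene *Klrb1c* stood at 343 CPM at 0 and 480 at 4 or more with vehicle, and at 642 and 595 with antibiotics. *Icam1* and *Tnfrsf9* set the classes, so the gradient is a description.

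**Figure D1:**
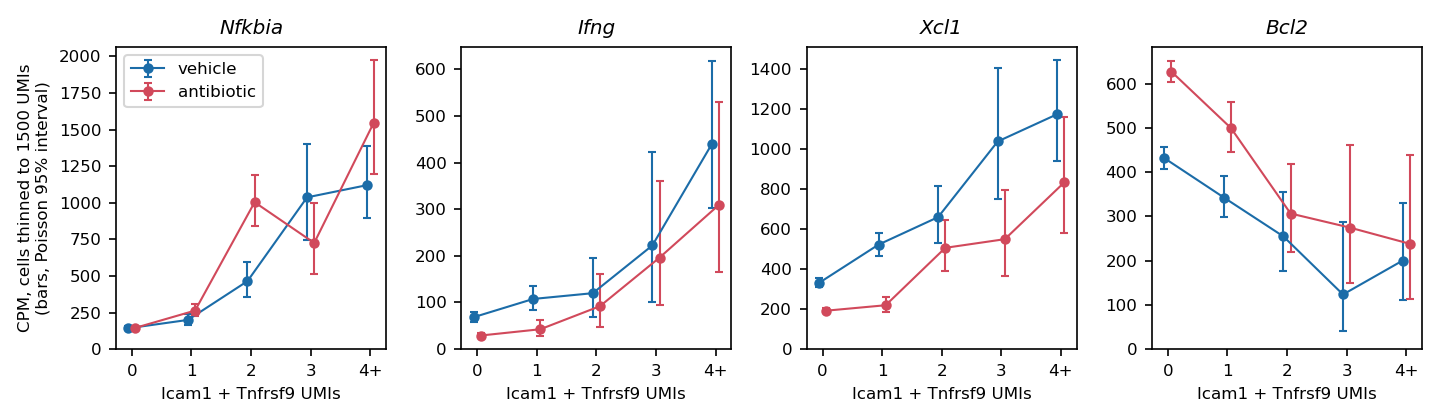
Levels in CPM (vertical axis) of *Nfkbia*, *Ifng*, *Xcl1* and *Bcl2* in cells with 0, 1, 2, 3 and 4 or more UMIs of *Icam1* and *Tnfrsf9* (horizontal axis), blue for vehicle and red for antibiotic, all cells thinned to 1500 UMIs, with Poisson 95% intervals as bars. *Nfkbia* goes from 142 to 1120 CPM with vehicle and from 145 to 1548 with antibiotics, and *Bcl2* from 432 to 200 and from 627 to 238.

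Members made up a smaller share of the *Trac* and *Cxcr6* cells in the antibiotic library and not of all cells. They were 166 of 3587 *Trac* and *Cxcr6* cells with vehicle, or 4.63% (3.96 to 5.37), and 149 of 4216 with antibiotics, or 3.53% (3.0 to 4.14). The ratio of these shares was 0.764 (0.608 to 0.959). Among *Trac* and *Cxcr6* cells that also lacked *Trav11*, *Cd79a* and *Ncr1* the shares were 6.89% (5.91 to 7.98) and 4.65% (3.94 to 5.43), a ratio of 0.674 (0.537 to 0.846). Of all cells they were 1.84% (1.58 to 2.14) and 2.11% (1.79 to 2.48), a ratio of 1.15 (0.912 to 1.44). The denominator decided the direction, because *Trac* and *Cxcr6* cells were 39.8% of the vehicle library and 59.8% of the antibiotic library. When the rule was applied after thinning to 1500 UMIs, 39 of 2407 and 34 of 2669 cells qualified (1.62% and 1.27%), and the interval of the ratio, 0.786 (0.481 to 1.28), included 1. With at least 3 UMIs of *Icam1* and *Tnfrsf9* the shares were 2.15% and 1.47%, a ratio of 0.685 (0.482 to 0.970). Shares of sorted cells show no absolute number, and a lower share of members and a larger number of other cells cannot be told apart.

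**Figure D2:**
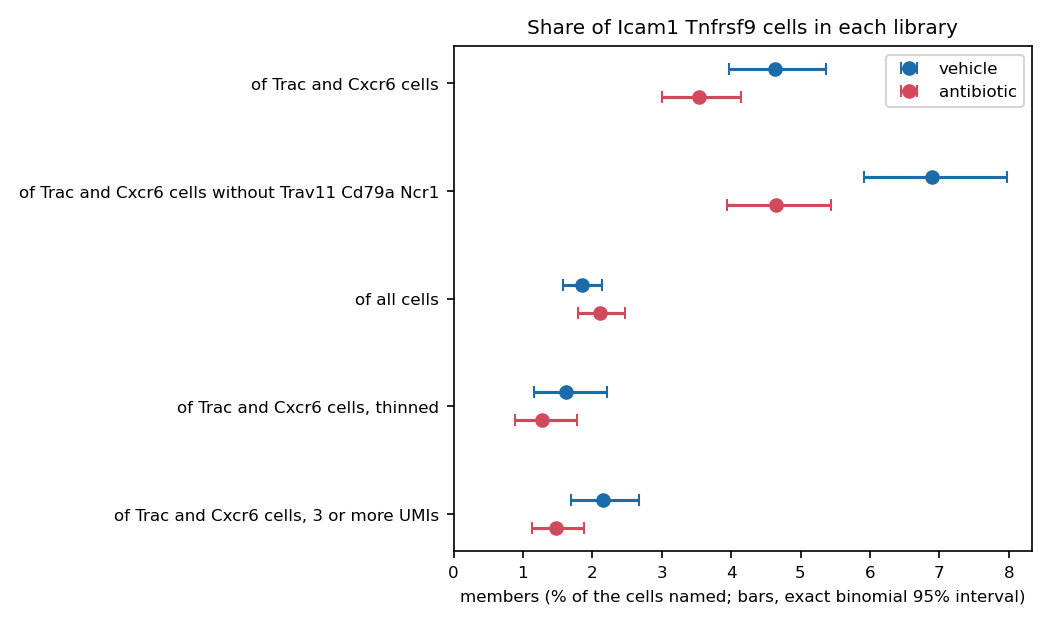
Share of members in percent (horizontal axis) with its exact binomial 95% interval as bars, for each library and each set of cells used as the denominator or each form of the rule. The antibiotic share lies below the vehicle share among *Trac* and *Cxcr6* cells (3.53% and 4.63%) and above it among all cells (2.11% and 1.84%).

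The markers that chose the members set their scale. *Icam1* read 459 CPM in vehicle members and 45.9 in the reference, and 456 and 36.0 CPM in the antibiotic library. *Tnfrsf9* read 101 and 12.9 CPM with vehicle, and 145 and 10.1 with antibiotics. *Icam1* was the more frequent reason for membership. In the vehicle library 110 members had *Icam1* alone, 16 *Tnfrsf9* alone and 40 both, and in the antibiotic library the numbers were 94, 25 and 30. For comparison, *Icam1* read 24.3 and 18.3 CPM in B cells and 80.1 and 77.8 CPM in NK cells of the vehicle and antibiotic libraries.

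Across all genes, members differed from the reference in few of them. The members were chosen on transcripts of the same cells, so what follows describes the group and tests nothing. In the vehicle library 58 of 3708 genes were at least 2-fold higher in members (1.56%) and 24 were at least 2-fold lower (0.647%). In the antibiotic library 67 of 3659 were higher (1.83%) and 25 lower (0.683%). The filter uses the mean of both groups, so a gene low in the reference passed only where it was high in members. With the filter on the reference alone, 29 of 3702 genes were 2-fold higher (0.783%) and 44 lower (1.19%) with vehicle, and 35 of 3654 higher (0.958%) and 46 lower (1.26%) with antibiotics. Regardless of size, 54.0% of tested genes read higher in vehicle members and 51.7% in antibiotic members, the shares against which the counts of list genes below are to be read. Of 3437 genes that passed the filter in both, 33 were 2-fold higher in both, which is 78.6% of the 42 so called with vehicle and 61.1% of the 54 with antibiotics. Of the lower genes 8 were shared, namely *Cd79a*, *Cd79b*, the MHC class II genes *H2-Aa* and *H2-Eb1*, *Gzma* and the immunoglobulin genes *Igkc*, *Iglc2* and *Jchain*. These counts hold genes of the rule, *Icam1* and *Tnfrsf9* among the 33 and *Cd79a* among the 8. Some of the 33 were also low in the reference and passed the filter through members. The overlap of the libraries is thus partly set by the rule and the filter.

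The NF-κB genes were higher as a group. Of all 24 listed genes, whatever their level, 23 read higher in vehicle members and 24 in antibiotic members, against 9583 of 15366 and 9314 of 14997 genes with any UMI. The filter on the mean of both groups passed 17 in each library, and all 17 read higher in members in both. Of these, 10 were at least 2-fold higher with vehicle and 15 with antibiotics, and the medians of 1.11 and 1.15 on the log2 scale compare with 0.03 and 0.01 over all genes. These counts are partly set by the filter. With the filter on the reference alone 9 and 10 genes passed, all higher in members, 4 and 8 of them 2-fold, with medians of 0.89 and 1.12. *Icam1* and *Tnfrsf9* are not on the list. *Nfkbia* read 716 CPM in vehicle members and 172 in the reference, a ratio of 4.17 (3.83 to 4.54), and 935 and 185 CPM with antibiotics, a ratio of 5.05 (4.64 to 5.49). It was found in 125 of 166 and in 125 of 149 members, or 75.3% and 83.9%, against 41.1% and 36.2% of reference cells. After thinning the shares were 54.8% and 63.1% of members, 19.1% and 18.6% of reference cells and 35.8% and 33.2% of B cells. The B-cell share exceeded that of the reference, so it is no measure of free RNA for *Nfkbia*. The IκB-type genes *Bcl3*, *Nfkbid* and *Nfkbie* stood higher as well. Each read under 30 CPM in both references and so passed the filter only through members. *Bcl3*, a nuclear IκB protein, read 76.9 against 15.0 CPM with vehicle and 53.5 against 8.99 with antibiotics. *Nfkbid*, the nuclear IκBNS, read 51.6 against 25.3 CPM with vehicle and 134 against 23.7 with antibiotics. *Nfkbie*, which encodes IκBε, read 60.1 against 21.8 and 66.1 against 15.9 CPM.

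The NF-κB subunit genes read higher in members, *Rela* least, *Relb* and *Nfkb2* most, and *Nfkb1* and *Rel* between them. *Relb* read 87.5 CPM in vehicle members and 40.7 in the reference, and 146 and 39.0 with antibiotics. *Nfkb2*, whose product p100 partners RelB, read 84.3 against 27.5 and 70.4 against 25.9 CPM, and passed the filter only through members. *Nfkb1*, the p105/p50 gene, had ratios of 1.5 (1.15 to 1.92) and 2.36 (1.85 to 2.98). *Rel* had 1.85 (1.29 to 2.58) and 2.02 (1.38 to 2.85), and *Rela* had 1.35 (1.01 to 1.78) and 1.26 (0.921 to 1.69), the last interval including 1. Genes that act downstream or as brakes completed the group. *Traf1*, an adaptor of TNF receptors including 4-1BB, read 175 against 81.4 CPM and 183 against 87.5. *Birc3* (cIAP2) read 55.9 against 21.1 and 71.8 against 32.7 CPM, and *Tnip1*, which helps A20 to limit NF-κB, 70.6 against 30.4 and 60.5 against 30.2. With vehicle, *Birc3* passed the filter only through members. *Tnfaip3*, the A20 gene, had ratios of 2.70 (1.96 to 3.65) with vehicle and 1.54 (0.954 to 2.38) with antibiotics. The survival genes *Bcl2a1b* and *Bcl2a1d* had ratios of 1.86 and 1.81 with vehicle and 2.14 and 2.31 with antibiotics, but they are near-identical copies whose reads cannot be assigned with certainty. *Nfkbie*, *Nfkb2*, *Rel*, *Rela*, *Birc3*, *Tnip1* and *Tnfaip3*, and further on *Myc*, *Nr4a1*, *Jun*, *Irf1*, *Gbp2*, *Gbp4*, *Odc1*, *Srm*, *Pdcd1lg2* and *Serpina3g*, are named here after their values had been seen.

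**Figure D3:**
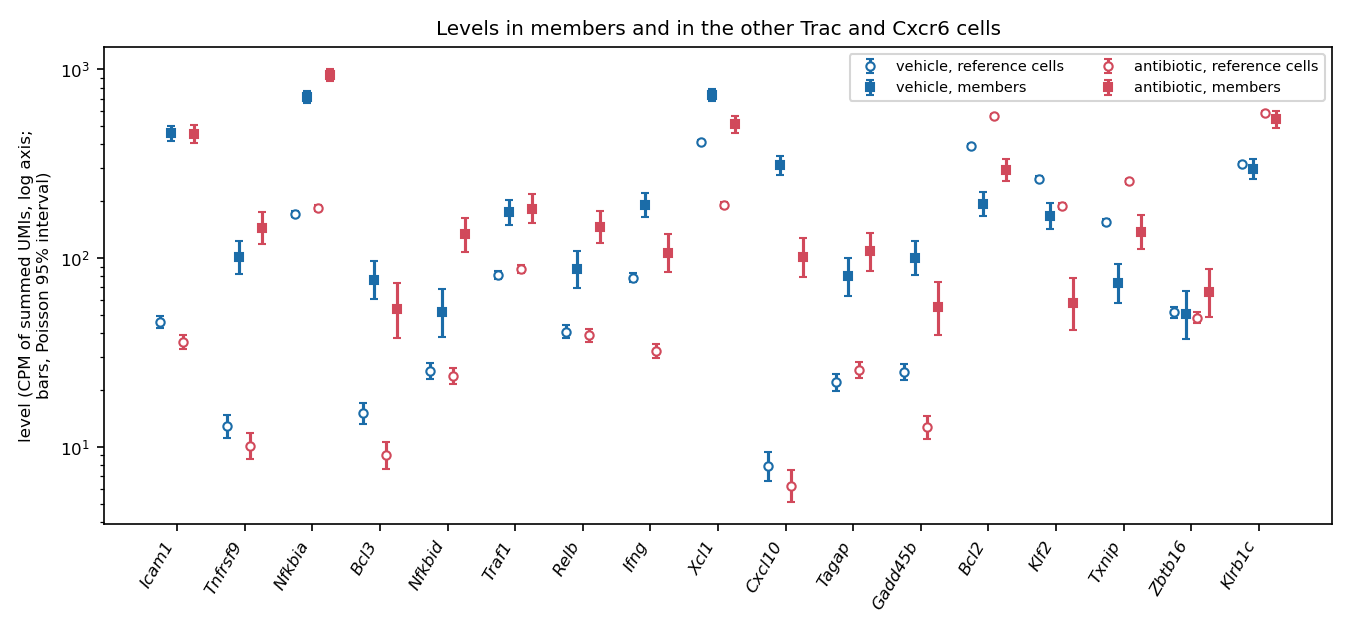
Levels in CPM of summed UMIs (vertical log axis) of selected genes in members (filled squares) and reference cells (open circles) of each library, with Poisson 95% intervals as bars. *Nfkbia* stands at 716 and 935 CPM in members and at 172 and 185 in reference cells, while *Klrb1c* stands at 297 and 545 in members and 315 and 589 in reference cells.

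Genes that the T cell receptor induces early were higher too. Of 23 listed genes, 9 passed the filter in each library and all 9 read higher in members, 3 of them 2-fold with vehicle and 2 with antibiotics (medians 0.82 and 0.85). With the filter on the reference alone it was 7 of 7 and 8 of 8 (medians 0.73 and 0.79). *Tagap* read 80.1 CPM in vehicle members against 21.9 in the reference and 108 against 25.5 with antibiotics. It passed the filter only through members. *Pim1*, a kinase of cytokine and receptor signaling, had ratios of 1.77 (1.58 to 1.97) and 1.80 (1.60 to 2.03). *Cd69*, the retention marker of recently activated and resident lymphocytes, had 1.56 (1.32 to 1.84) and 1.88 (1.52 to 2.30). *Batf*, an AP-1 partner of activated T cells, had 1.99 and 1.93, and *Bhlhe40*, which sustains cytokine production, had 2.09 and 1.65. *Nr4a1*, the most direct reporter of receptor signaling in this list, did not pass the filter. It was found in 10 vehicle and 8 antibiotic members, with 18 and 22 UMIs in all. The AP-1 and immediate early genes were divided between both directions. Of those that passed the filter, 10 of 16 read higher with vehicle and 10 of 15 with antibiotics (medians 0.09 and 0.15, the latter −0.05 without the top cell of each gene). *Gadd45b*, a stress-induced gene that NF-κB also controls, read 100.1 against 24.9 CPM and 54.9 against 12.7. It, too, passed the filter only through members. *Jun* was lower in members, at 154 against 265 CPM and 73.2 against 119. *Junb* had ratios of 1.29 and 1.87. Heat shock and dissociation genes, which the preparation of cells can induce, read higher in members in 8 of 11 and 8 of 8 tested cases (medians 0.44 and 0.34, none 2-fold), and their part in the other groups was not tested.

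Of the effector genes, *Ifng* and the chemokine *Xcl1* read higher in members of both libraries. The chemokine *Cxcl10* did so through few cells, and the type 2 cytokine *Il4* in 1 library, partly through 1 cell. *Ifng* read 192 CPM in vehicle members and 78.5 in the reference, a ratio of 2.44 (2.08 to 2.86), and 107 and 32.3 with antibiotics, a ratio of 3.31 (2.57 to 4.22). It was found in 69 of 166 and in 37 of 149 members. After thinning, 19.9% and 14.8% of members had an *Ifng* UMI, against 9.32% and 3.96% of reference cells and 0.784% and 0.322% of B cells. *Il4* read 84.3 CPM against 84.8 with vehicle, and 124 against 67.1 with antibiotics, where 1 cell held 32 of the 88 UMIs. *Xcl1*, a chemokine that attracts cross-presenting dendritic cells, had ratios of 1.78 (1.64 to 1.93) and 2.69 (2.41 to 3.0). *Ccl5*, abundant in all these cells, had 0.768 with vehicle and 1.00 with antibiotics. *Ltb*, a TNF-family ligand that engages the noncanonical NF-κB pathway in its target cells, read 1672 against 1153 CPM and 1582 against 1035.

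*Cxcl10*, the ligand of CXCR3 and an interferon-γ-induced gene, had the largest ratio of the genes not in the rule in the vehicle library, and few cells carried it. It read 311 CPM in vehicle members against 7.88 in the reference, a ratio of 39.5 (32.0 to 49.0), and 101 against 6.22 with antibiotics, a ratio of 16.3 (11.9 to 22.3). Only 23 vehicle and 8 antibiotic members had a UMI of it, and it passed the filter only through members. A single cell gave 80 of 295 UMIs with vehicle and 38 of 72 with antibiotics. By *Icam1* and *Tnfrsf9* UMIs, thinned antibiotic cells read 20.5 CPM at 1, 0 at 2 and at 3, and 595 at 4 or more. Thinned vehicle cells read 14.0, 210, 222 and 320 CPM in these classes. After thinning, 7.83% and 3.36% of members had *Cxcl10*, against 0.585% and 0.418% of reference cells and 0.178% and 0.0805% of B cells.

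Interferon response genes followed the same direction. Of 22 listed genes, 20 passed the filter with vehicle and all 20 were higher in members, and with antibiotics 15 of 16 were (6 of them 2-fold in each, medians 0.63 and 0.48). With the filter on the reference alone 19 of 19 and 15 of 16 were higher (medians 0.62 and 0.48). *Isg15*, a ubiquitin-like modifier, read 353 CPM against 164 with vehicle and 120 against 36.3 with antibiotics. *Irf1*, a transcription factor that interferon-γ induces, read 206 against 134 and 251 against 98.9. The guanylate-binding protein genes *Gbp2* and *Gbp4*, which interferon-γ induces strongly, had ratios of 2.24 and 2.11 with vehicle and 2.68 and 2.27 with antibiotics. *Ifi27l2a* had ratios of 1.38 (1.3 to 1.47) and 1.03 (0.885 to 1.19).

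Growth genes read higher. All 24 genes of the Myc-type list that passed the filter were higher in members in both libraries, only 2 and 3 of them 2-fold (medians 0.57 and 0.53). *Odc1*, the entry enzyme of polyamine synthesis, read 88.5 against 36.3 CPM and 81.6 against 31.6. *Srm*, which makes spermidine from the product of *Odc1*, read 91.7 against 44.1 and 83.0 against 38.8, and *Eif5a*, the factor that spermidine modifies, had ratios of 1.69 and 1.81. *Ncl* (nucleolin) had ratios of 1.56 and 1.41. Glycolysis genes read higher in 11 of 13 and 9 of 13 cases, beside 54.0% and 51.7% of all tested genes, with medians of 0.30 and 0.20 and none 2-fold. *Ppa1*, the pyrophosphatase that drives biosynthetic reactions, read 139 against 47.3 CPM and 69.0 against 32.4. *Myc* itself had ratios of 2.16 (1.59 to 2.87) and 1.55 (1.12 to 2.10).

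Most listed genes of resting and recirculating lymphocytes read lower, but their summed level differed less. Of 15 listed genes, 11 of the 13 that passed the filter read lower with vehicle and 10 of 12 with antibiotics (medians −0.56 and −0.57), and 2 and 1 were 2-fold lower. Over all tested genes 46.0% and 48.3% read lower. The list summed to 2285 CPM in vehicle members against 2581 in the reference, and to 2709 against 2776 with antibiotics. *Btg1*, an antiproliferative gene and the most abundant of the list, read higher in members, at 1075 against 913 CPM and 1507 against 948. *Bcl2* read 194 CPM in vehicle members against 391 in the reference, a ratio of 0.495 (0.426 to 0.574), and 294 against 567 with antibiotics, a ratio of 0.518 (0.450 to 0.595). When the rule was applied to thinned cells, its log2 ratio was 0.08 with vehicle and −0.50 with antibiotics. *Bcl2l11*, which encodes the Bcl-2 antagonist Bim, stood on the other side, at 68.5 against 30.1 CPM and 98.5 against 45.3. *Txnip*, an inhibitor of glucose uptake, read 73.8 against 155 and 138 against 256. *Klf2*, which maintains the exit receptor *S1pr1*, read 168 against 264 CPM (ratio 0.635) and 57.7 against 189 (ratio 0.305). In the vehicle library 1 member held 33 of the 159 *Klf2* UMIs. *Il7r*, the IL-7 receptor α-chain, had ratios of 0.597 and 0.638, and *Ifngr1*, the receptor of interferon-γ, 0.685 and 0.504.

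The NK receptor genes were lower in part, in the antibiotic library at a count near the 48.3% of all tested genes that read lower. With vehicle, 9 of 12 tested genes read lower (median −0.36, and −0.12 against the freed reference), and with antibiotics 6 of 10 did (median −0.22). *Klrk1*, the NKG2D gene, read 155 against 305 CPM and 214 against 352. *Klrc2* read 46.4 against 81.8 and 42.2 against 102, and *Cd7* 192 against 376 and 120 against 186. *Klrb1c*, with ratios of 0.942 and 0.925, was close to the reference. Costimulatory and inhibitory receptors other than *Tnfrsf9* showed no such shift (medians 0.03 and 0.06, none 2-fold in either library). Cytotoxic granule genes had medians of −0.26 and 0.02. Among further genes that were 2-fold higher in both libraries, *Pdcd1lg2* encodes the PD-1 ligand PD-L2 and read 85.4 against 34.3 CPM and 108 against 26.1. With antibiotics it passed the filter only through members. *Rgs1*, which dampens chemokine receptor signaling, read 465 against 212 and 325 against 141, and the protease inhibitor *Serpina3g*, which has close paralogs, 292 against 113 and 301 against 114. *Marcksl1*, an actin- and membrane-binding protein, read 78.0 against 10.3 CPM and 85.9 against 17.9, and passed the filter only through members.

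**Figure D4:**
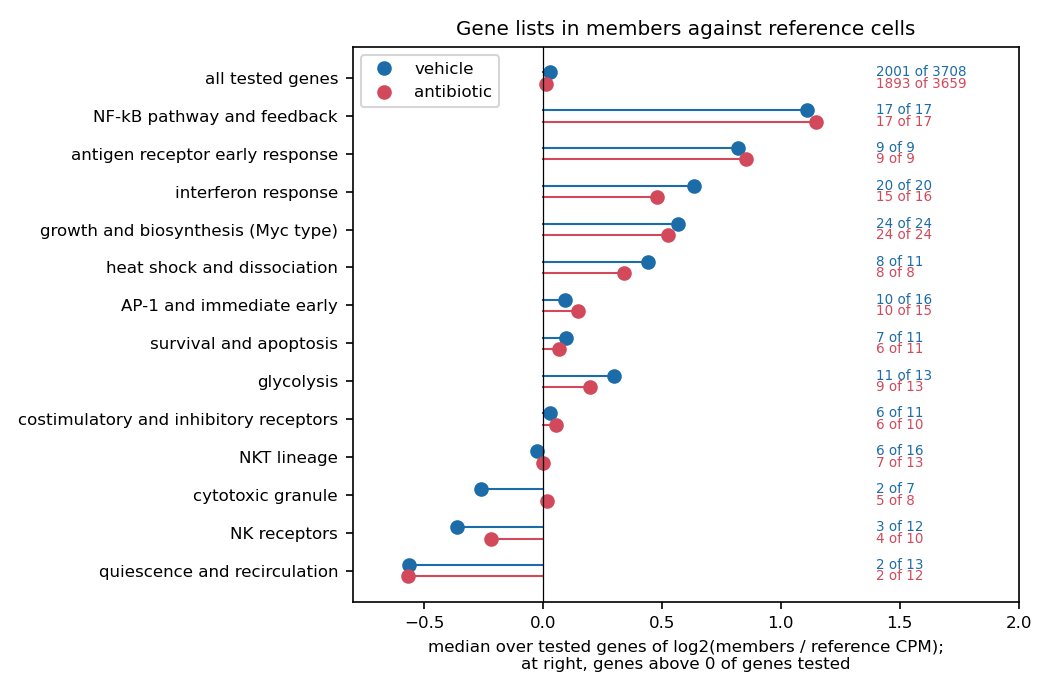
Median over the genes that passed the filter of log2(members / reference CPM) for the fixed gene lists (horizontal axis), with points colored by library and, at right, the number of genes above 0 of those tested. The NF-κB list has medians of 1.11 and 1.15 with 17 of 17 genes above 0 in both libraries, and the quiescence and recirculation list has −0.56 and −0.57.

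Part of the largest ratios came from 1 or 2 cells. In the vehicle library 1 member held 380 of the 401 *Lyz2* UMIs (lysozyme of myeloid cells), and the member with most *Cd74* UMIs was described above. In the antibiotic library 2 members held all 57 UMIs of the Kupffer cell gene *Clec4f*, all 51 of *Apoc1* and all 90 of *C1qa*, and 1 member held 420 of the 574 *Apoe* UMIs. Those genes led the antibiotic list together with *C1qb*, *C1qc* and *Wfdc17*. Cells with at least 3 UMIs of 10 myeloid genes were 2 vehicle and 2 antibiotic members (1.20% and 1.34%) and 1.46% and 0.393% of the reference. Without them the log2 ratio of *Lyz2* was −0.10 with vehicle and that of *Apoe* −0.06 with antibiotics, while that of *Nfkbia* was 2.03 and 2.34 and that of *Ifng* 1.32 and 1.78. Cycling cells were another minority. In the vehicle library 8 members (4.82%, 2.10 to 9.27) and 1.90% of the reference had at least 3 UMIs of 7 mitotic genes, in the antibiotic library 0 of 149 members (up to 2.45%) and 0.369% of the reference. The ubiquitin-conjugating enzyme gene *Ube2c*, 3.51-fold higher in vehicle members, had a log2 ratio of −0.30 without cycling cells. *Ifitm3*, 3.56-fold higher with vehicle, had 48 of its 118 UMIs in 1 cell.

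Members chosen by *Icam1*, by *Tnfrsf9* or by both did not read alike. *Nfkbia* read 838 CPM (763 to 918) in vehicle members with *Icam1* alone, 273 (197 to 369) with *Tnfrsf9* alone and 718 (616 to 833) with both. In the antibiotic library it read 1246 (1138 to 1361), 413 (318 to 527) and 676 (555 to 815). Cells with *Tnfrsf9* alone were thus the lowest in both libraries, and they still lay above the reference. *Ifng* read 215, 130 and 178 CPM with vehicle and 145, 45.2 and 74.4 CPM with antibiotics, in the same order of subsets. *Bcl2* read 257, 58.4 and 136 CPM with vehicle and 365, 219 and 192 with antibiotics. *Klrb1c* was lowest in cells with *Tnfrsf9* alone in both libraries, at 123 CPM with vehicle and 406 with antibiotics, against 329 and 599 in cells with *Icam1* alone. Tnfrsf9-only members numbered 16 and 25, and 13 of the 22 vehicle UMIs of *Ctla4*, which read 117 CPM in that subset, came from 1 cell.

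Cells that met the rule except for a *Trav11* UMI shared some of these genes, and for others they were too few to judge. There were 20 vehicle and 27 antibiotic cells of this kind, and *Nfkbia* read 660 CPM (514 to 834) and 812 (664 to 982) in them, against 154 and 180 in other *Trac* and *Cxcr6* cells with *Trav11*. *Ifng* read 189 and 92.7 CPM, against 83.7 and 24.9. *Tagap* read 189 and 232 CPM against 14.0 and 21.0, and *Bcl3* 66.0 and 38.6 against 18.9 and 4.42. *Cxcl10* had no UMI in the vehicle cells (interval up to 34.8 CPM) and read 7.73 CPM with antibiotics, against 311 and 101 in members. Few members carried *Cxcl10*, and single cells held much of it, which the interval does not cover. So few cells cannot show whether they differ from members in it. *Marcksl1* read 9.43 and 69.6 CPM against 78.0 and 85.9 in members, *Nfkbid* 18.9 and 69.6 against 51.6 and 134, and *Il4* 84.8 and 23.2 against 84.3 and 124. With 20 and 27 cells, the low values among these rest on few UMIs. A β-chain variable segment was recorded in 12 vehicle and 18 antibiotic members. Of these, 5 and 6 had *Trbv13*, *Trbv29* or *Trbv1*, the segments of invariant NKT cells, against 46.3% of 229 and 37.5% of 373 reference cells with a segment. Cells with *Trac* but without *Cxcr6* and *Cd79a* gave 36.6% of 41 and 15.8% of 57. The other *Trac* and *Cxcr6* cells with *Trav11* gave 35.7% of 14 and 38.9% of 36. The intervals of the member shares, 15.2 to 72.3% and 13.3 to 59.0%, include all these values of their library. The segments therefore do not tell members from other T cells, and in so few cells they do not set *Trav11* cells apart either.

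The comparison of the libraries asks how the members differed with antibiotics and sets them beside the reference cells of the same libraries. Of 3674 genes, 41 were at least 2-fold higher in antibiotic than in vehicle members (1.12%) and 107 were 2-fold lower (2.91%). In the reference 9 of 3678 were higher (0.245%) and 54 lower (1.47%). Ribosomal protein transcripts were 32.9% of member UMIs with vehicle and 39.5% with antibiotics, and 33.4% and 39.9% in the reference. Scaling without ribosomal and mitochondrial genes moved the median of all genes by 0.16 on the log2 scale in both groups, from −0.08 to 0.08 in members, and the member split became 150 higher and 112 lower. List medians below are to be read against −0.08 in members and −0.05 in the reference, and counts against the 42.1% and 41.3% of all tested genes that read higher.

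Interferon response genes were lower in antibiotic members. Of 20 tested genes 19 read lower, 9 of them 2-fold (median −0.81), and in the reference 17 of 17 did (median −0.70). The exception in members was *Irf1*, with a ratio of 1.22 (0.989 to 1.5). *Isg15* read 353 CPM in vehicle and 120 in antibiotic members, and 164 and 36.3 in reference cells. *Ifi27l2a* read 1284 and 263 CPM in members and 929 and 255 in the reference, and *Ifit3* 82.2 and 9.85 in members. *Ifng* had a ratio of 0.558 (0.421 to 0.733) in members and 0.412 in the reference, and *Xcl1* 0.702 (0.617 to 0.798) and 0.464. Heat shock and dissociation genes read lower in 9 of 9 cases (median −0.61), as in the reference (10 of 10, median −0.71). These genes respond to handling of tissue, and differences in the preparation of the libraries cannot be told apart from the treatment.

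Against this, the NF-κB genes of members were not lower with antibiotics. Of 19 tested genes 14 read higher, 1 of them 2-fold (median 0.14). On the 9 genes tested in both groups, 8 read higher in members (median 0.13) and 3 in the reference (median −0.01). Scaled without ribosomal and mitochondrial genes, 8 of these 9 read higher in each group, with medians of 0.29 and 0.15. *Nfkbia* had a ratio of 1.31 (1.17 to 1.46) in members and 1.08 in the reference. *Nfkbid*, which did not pass the filter in the reference, had 2.59 (1.82 to 3.73) in members and 0.937 in the reference. *Relb* had 1.67 (1.24 to 2.26) and 0.958, and *Nfkb1* 1.57 (1.12 to 2.21) and 0.998. When the rule was applied to thinned cells, *Relb* had a log2 ratio of −0.19 in members and *Nfkbid* 0.99. *Tnfaip3* and *Gadd45b* went the other way, with ratios of 0.588 (0.339 to 0.988) and 0.548 (0.368 to 0.804). *Icam1* read nearly the same in both, with a ratio of 0.995 (0.859 to 1.15), which the rule constrains. The cutoff of 2 UMIs was the same in both libraries, though members had a median of 4765 UMIs with vehicle and 4058 with antibiotics. What this adds to the level of NF-κB genes, whose summed list was higher where more of these UMIs were counted, was not tested. The difference between members and reference in these responses was not tested.

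Of the 41 genes that were 2-fold higher in antibiotic members, 27 passed the filter in the reference, where 23 of them read higher and 5 were 2-fold higher. *Il7r* had ratios of 2.74 (2.07 to 3.66) and 2.56, *Tmem106b*, a lysosomal membrane protein, 4.13 (2.49 to 7.12) and 3.65, and *Sdhaf1*, an assembly factor of mitochondrial complex II, 2.86 (2.15 to 3.83) and 2.44. *Klrb1c* had 1.83 (1.57 to 2.14) and 1.87, and *Bcl2* 1.52 (1.24 to 1.86) and 1.45. *Ccl5*, *Il4* and *Tcrg-C1*, in contrast, read higher in antibiotic members and lower in the antibiotic reference, with log2 ratios of 0.34 and −0.045, 0.55 and −0.34, and 0.62 and −0.39. The higher myeloid genes *Apoe*, *Apoc1*, *C1qa*, *C1qb*, *C1qc*, *Clec4f* and *Wfdc17* came from the 2 antibiotic members described above. Of the 107 genes that were 2-fold lower in antibiotic members, 89 passed the filter in the reference, where 87 read lower and 25 were 2-fold lower. Among lower genes, *Klf2* had 0.344 (0.238 to 0.488) in members and 0.717 in the reference. All 13 tested adhesion and migration genes read lower in members (median −0.50) and in the reference (median −0.23). Scaled without ribosomal and mitochondrial genes the medians were −0.34 and −0.07, and 1 of the 13 read higher in members and 4 in the reference. Other lower genes were named by the size of their ratio and form no fixed list. *Vim*, the intermediate filament vimentin, read 167 and 12.7 CPM in members, with 54 of 158 vehicle UMIs in 1 cell, and 99.8 and 42.8 in the reference. *Lgals1* (galectin-1) had ratios of 0.200 and 0.265, and the calcium-binding *S100a6* 0.228 and 0.458. Cell cycle genes read lower in 9 of 9 cases (median −1.31), and in the reference in 5 of 5 (median −0.40). On the 5 tested in both groups the median in members was −0.82. *Birc5* had 62 UMIs in vehicle and 0 in antibiotic members, *Ube2c* 92 and 1, and *Top2a* 61 and 1. Of the 326 UMIs of the 7 mitotic genes in vehicle members, 313 came from those 8 cells.

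**Figure D5:**
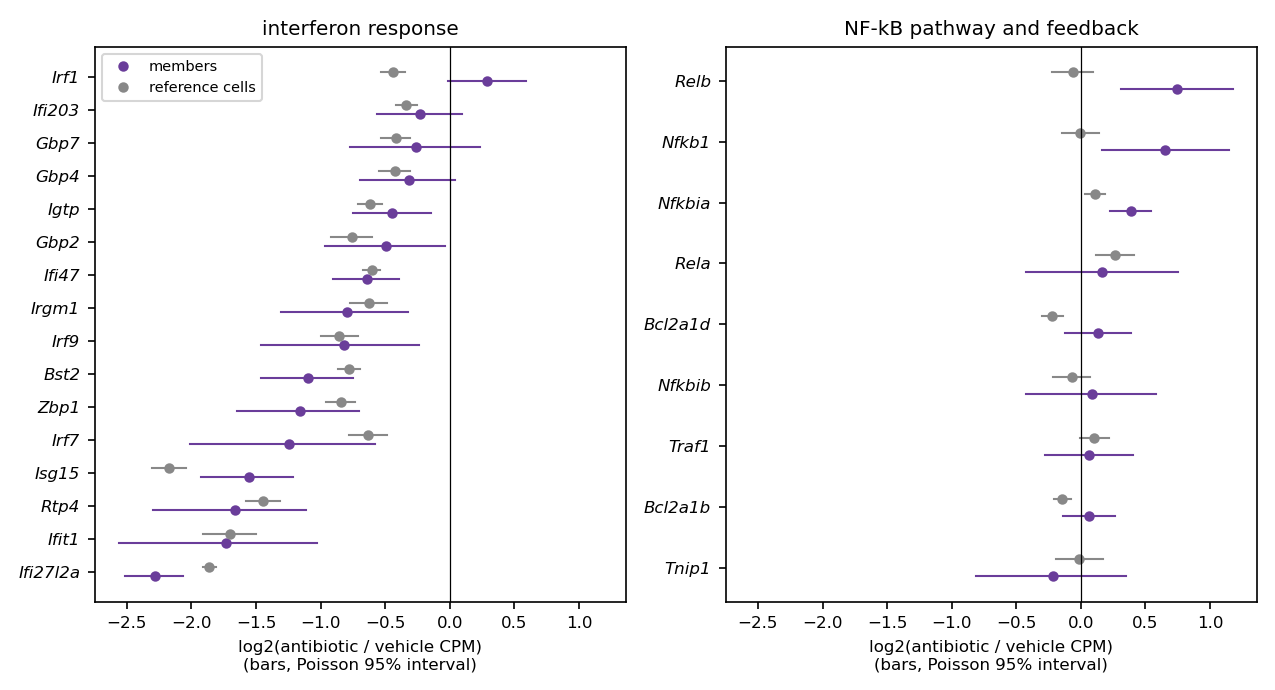
Antibiotic over vehicle log2 ratio of CPM (horizontal axis) of each gene of the interferon response and NF-κB lists that passed the filter in both members (purple) and reference cells (gray), 1 interferon gene not drawn, with 95% intervals as bars. All 16 interferon genes drawn lie left of 0 in the reference and all but *Irf1* do so in members, and of the 9 NF-κB genes drawn *Relb* lies farthest right in members, at 1.67-fold against 0.958-fold in the reference.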

How the data were processed

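UMI counts per gene and barcode were deposited by the authors for 1 vehicle and 1 antibiotic library made with the Chromium Single Cell 3′ v2 kit. Reads had been processed by the submitters with bcl2fastq and Cell Ranger against mm10, per their processing notes. The versions of both tools are not given in the sources used here. Each matrix covers all 737280 barcodes of the kit and 28692 genes, and neither a filter on cells nor a normalization had been applied.

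Barcodes with at least 1500 UMIs and under 10% mitochondrial UMIs were kept, and members were chosen by the rule given above. UMIs were summed over the cells of a group and scaled to CPM. A log2 ratio had 0.5 UMI added to each sum, and a ratio printed as a fold is the plain ratio of CPM with the exact conditional 95% interval of 2 Poisson counts. A share carries its exact Clopper-Pearson 95% interval. Genes passed the filter with a mean of at least 30 CPM over both groups and at least 10 UMIs expected in the smaller group, and at least 2-fold counted as different. No test was made, because each condition is 1 library and cells are not replicates, and a p-value over cells would measure only the spread within a library. PCR and free RNA add error that the intervals do not cover. The share of cells in which a gene was detected was computed after thinning each cell to 1500 UMIs (seed 1), beside B cells (at least 2 *Cd79a* UMIs and no *Trac*). B cells show the share that free RNA can give only for genes that they do not express. Barcodes with 10 to 100 UMIs served as free RNA in 1 alternative, in which the amount removed was 8.53% of UMIs with vehicle and 8.96% with antibiotics. Doublets were scored with Scrublet at an expected 6% and kept.

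The members and the 30 gene lists (427 genes, 425 of them in the files) were chosen with earlier results of these data known, so neither is independent support for a pattern. Named genes are the genes of the rule, the 10 higher and 10 lower genes of each of 4 comparisons by the interval bound nearest 1 (without ribosomal, mitochondrial, hemoglobin, immunoglobulin and T cell receptor genes), and up to 6 genes of each list by mean CPM. Values of 2 genes are not reported here. Exceptions are said to be named after their values had been seen. Promoter windows are from RefSeq (GRCm38.p6), which is the build of mm10, and gene positions from GENCODE vM21, matched to the files by gene ID. The computation of ratios and intervals was tested on simulated counts. Scrublet was run in scanpy 1.11.5, statistics in scipy 1.17.1 and numpy 2.4.6, tables in pandas 2.3.3 and plots in matplotlib 3.10.9, under Python 3.11.15.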

Additional observations from a re-analysis of the deposited data

Results flagged for a closer look

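For 9 genes the intervals of the ratio excluded 1 in opposite directions in a pair of matching comparisons. Each library is 1 sample, so none of these differences was tested.

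Members against reference, the log2 ratio of *Apoe* was −0.85 with vehicle and 4.26 with antibiotics. Without cells holding at least 3 myeloid UMIs it was −0.39 and −0.06. The values of *Cst3*, a cathepsin inhibitor of myeloid cells, were −0.40 and 0.31. *Fcer1g* and *Tyrobp*, signaling adaptors of NK and myeloid cells, read −0.44 and 0.73, and −0.69 and 0.73, respectively. Against the reference without *Trav11*, *Cd79a* and *Ncr1* they read 0.55 and 1.47, and 0.23 and 1.22. In the antibiotic library 2 members held 413 of the 420 member UMIs of the myeloid genes counted above. The part of these cells in *Cst3*, *Fcer1g* and *Tyrobp* is not given here. *Hmgb2*, a chromatin protein of dividing cells, read 0.17 with vehicle and −0.37 with antibiotics, beside 8 cycling vehicle members and 0 antibiotic ones.

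Antibiotic over vehicle, the log2 ratio of *Apoe* was 4.32 in members and −0.79 in the reference. *Ccl5* read 0.34 in members and −0.045 in the reference. *Il4* read 0.55 and −0.34, and 0.06 in members without the cell that held most of its UMIs. The inhibitory NK receptor gene *Klrc1* read −0.64 in members and 0.12 in the reference. *Tcrg-C1*, a γ-chain constant segment, read 0.62 and −0.39.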

How the results depend on the processing

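No paired analysis was possible because each condition has 1 library. Depth limits what the members can show: genes under about 30 CPM were left out of most counts, and most member ratios rest on under 100 UMIs. The few such genes that are named, among them *Nr4a1* and *Foxp3*, rest on few UMIs. The log2 ratio of the share of members among *Trac* and *Cxcr6* cells, −0.39, kept its sign under 10 of 11 alternatives (−0.57 to −0.34) and was 0.20 when all cells were the denominator. Over 118 gene values and 2218 alternative values, 1861 stayed within the main interval, 314 moved outside it in the same direction or without a 2-fold difference, and 43 reversed a 2-fold difference. The cause of each was not tested beyond the construction of the alternative. Several of the 43 reversals rest on few UMIs or none, where the 0.5 UMI added can set the sign. Leaving out myeloid cells, cycling cells and the top cell of each gene, and filtering on the reference alone, were chosen after seeing the data.

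Counts of 2-fold genes, higher and lower, moved by over 1.5 times as follows. In vehicle members against reference (58 and 24) they were 29 and 5 with the rule applied to cells thinned to 1500 UMIs, 108 and 45 with 3 or more *Icam1* and *Tnfrsf9* UMIs, 12 and 8 under a stricter filter, 3672 and 858 with no filter, 35 and 39 without the top cell of each gene, and 29 and 44 with the filter on the reference alone. The lower count alone moved to 44 without ribosomal and mitochondrial genes, 15 with 5 UMIs added and 10 against the reference without *Trav11*, *Cd79a* and *Ncr1*. In antibiotic members against reference (67 and 25) they were 27 and 3 thinned, 114 and 86 with 3 or more UMIs, 15 and 5 under the stricter filter, 4122 and 828 with no filter and 35 and 46 with the filter on the reference alone. The higher count was 41 without top cells, and the lower one 68 without ribosomal and mitochondrial genes, 11 with 5 UMIs added and 41 with free RNA subtracted. For antibiotic against vehicle members (41 and 107) they were 17 and 30 thinned, 91 and 167 with 3 or more UMIs, 7 and 28 under the stricter filter and 1522 and 1987 with no filter, with 150 higher without ribosomal and mitochondrial genes and 68 lower with 5 UMIs added. In the reference (9 and 54) they were 5 and 20 under the stricter filter, 1458 and 2493 with no filter and 32 higher without ribosomal and mitochondrial genes.

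Reversed log2 ratios of vehicle members against reference were, thinned, −0.11 (*Lyz2*), −0.73 (*Ube2c*) and 0.081 (*Bcl2*). *Lyz2* was −1.29 without the deepest 1% of cells, −1.29 without its top cell and −0.10 without myeloid cells, and *Ube2c* −0.30 without cycling cells. Against the reference without *Trav11*, *Cd79a* and *Ncr1*, *Fcmr* was 0.44, *H2-DMb2* 0.36 and *H2-Aa* 0.045. With antibiotics *Cd74* was 0.58 and *H2-Eb1* 0.21 against that reference, *Apoe* −2.36 and *Gzma* 1.68 thinned, and *Apoe* −0.062 without myeloid cells. With 3 or more UMIs *Clec4f* was −1.20, *Apoc1* −1.10, *C1qc* −2.06, *C1qa* −2.41, *C1qb* −2.37 and *Apoe* −1.99.

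For antibiotic against vehicle members, thinned values were −1.39 (*Apoc1*), −3.26 (*Apoe*), −2.12 (*Wfdc17*), 1.78 (*Hist1h2ap*), 0.20 (*Birc5*, *Ube2c*, *2810417H13Rik* and *Top2a*), 1.60 (*Cxcl10*) and 0.53 (*Hmgb2*). Only 39 vehicle and 34 antibiotic cells of 1500 UMIs qualified there, so several of these values rest on few UMIs. The equal values of *Birc5*, *Ube2c*, *2810417H13Rik* and *Top2a* are what genes without a UMI in either group give. They come from the 0.5 UMI added and the unequal totals, and show no direction. With 3 or more UMIs they were −1.31 (*Apoe*), −1.81 (*C1qa*), −1.07 (*Clec4f*) and −3.19 (*Wfdc17*). Without myeloid cells they were −1.04 (*Apoe*), −2.40 (*C1qa*), −2.76 (*C1qc*), −1.91 (*Clec4f*) and −0.97 (*Wfdc17*), and without cycling cells 0.22 (*Birc5* and *Ube2c*) and 0.074 (*Hmgb2*). The equal values of *Birc5* and *Ube2c* without cycling cells again rest on next to no UMIs and show no direction.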
